A study of Mus musculus with 6 samples.

Results

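The Myc, Max and Mxd network is a small family of transcription factors that compete for a common partner and a common DNA sequence. Its 9 genes here were Myc, Mycn, Max, Mnt, Mga, Mxd1, Mxi1, Mxd3 and Mxd4, chosen by their symbols out of 18193 genes measured on the arrays. The platform annotation gave these genes, with no second gene, 24 of the 45037 probe sets that were not controls. Each gene was read from the probe set with the highest mean over all arrays, and its other probe sets are given beside it.

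Myc and Mycn bind DNA only as pairs with Max, at short sites called E-boxes, and then recruit acetyltransferase complexes that raise transcription of genes for growth, ribosome production and cell division. The Mxd proteins (Mxd1, Mxi1, Mxd3, Mxd4) and Mnt pair with Max at the same sites and bring the Sin3 and histone deacetylase corepressors, which lower transcription. Mga, a very large protein with a T-box as well as a Max-pairing domain, carries Max into a Polycomb complex. In fibroblasts Myc is known as an early response gene to serum, and its level follows growth factor signals.

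The study set mouse embryonic fibroblasts with a double knockout of Abl1 (the gene of c-Abl) and Abl2 (that of Arg) against wild-type ones, to ask how these tyrosine kinases affect gene expression. There were 3 Affymetrix arrays of each, wild type and double knockout, made with biotin-labelled RNA from 6 µg of total RNA. Both groups came from C57BL/6 embryos at 14 days of gestation, with the sexes pooled, and both grew in DMEM with 10% heat-inactivated fetal serum. How the alleles were made, whether either group is a single line, and whether the 3 arrays came from separate cultures or embryos is not given in the sources used here. The p-values therefore cover the spread among these arrays and no more, and that spread may be technical.

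The values are signals, linear intensities per probe set. Array medians lay between 13.4 and 14.7, and signals below these are close to the floor of the arrays. Each difference is the knockout mean less the wild-type mean of log2(signal + 16), which understates changes of dim probe sets. A gene rose or fell where limma's adjusted p, taken over all 18193 genes, was under 0.05. The targeted genes, whose adjusted p was taken over all probe sets instead, did not bear out the labels clearly. The brightest Abl1 probe set read 182, 183 and 190 in wild type and 178, 171 and 161 in the arrays labelled knockout (-0.11, limma adjusted p = 0.107). The brightest Abl2 probe set overlapped (-0.01, limma adjusted p = 0.888). Both dimmer Abl1 probe sets rose, with differences of 0.28 (limma adjusted p = 0.00586) and 0.21 (0.00120). Whether these probes lie in the deleted parts was not analysed here, so every direction is that of the arrays labelled knockout. Of 14 fibroblast markers 9 rose and 2 fell, with Thy1, Lum and Fap near the floor in both groups, Pdgfra near it in wild type only (10.0 against 1789) and Col1a2 and Col3a1 near it in the knockout arrays only. All 19 proliferation markers measured fell (median -1.71). Their summed signal ran from 30169 to 31080 in wild type and from 9959 to 11365 in the knockout arrays. Macrophage markers summed to between 195.0 and 212.6 against between 493.2 and 540.0. Of these 10 markers Cd14 and Cd68 rose and 2 fell, while Ptprc and Tyrobp were at the floor in both groups. Neural markers summed to between 260.8 and 271.4 against between 517.4 and 600.0, with Sox2 and Nes higher and 3 of 7 lower. Endothelial, epithelial and muscle markers were mostly near the floor (0 of 23 rose, 8 fell). The part of these markers in the results below was not tested. In such bulk samples fewer cells of a type and less RNA per cell cannot be told apart.

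The E-box that Max-containing pairs prefer, CACGTG, reads the same on both strands. It was searched in RefSeq promoter windows of the mouse build GRCm38.p6, each from 250 bases before to 50 bases after a gene's start. The table held windows for 8 of the 9 genes, 10 windows in all. The windows of Max, Mnt and Mxd4 each held the motif once, and those of Mxd1, Mxd3, Mxi1, Mga and Mycn did not. Over all 32851 windows 7.15% held it. The stretches are shown because they are the network's own recognition letters beside its own genes, each as 30 bases of the gene's strand with the motif in capitals.
Max, chr12:76962234-76962263, minus strand: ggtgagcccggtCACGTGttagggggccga
Mnt, chr11:74830789-74830818, plus strand: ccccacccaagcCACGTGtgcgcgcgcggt
Mxd4, chr5:34187912-34187941, minus strand: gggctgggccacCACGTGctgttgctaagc
The motif of Max begins 3 bases before the start of the gene, and its stretch, which begins 15 bases before, runs into the transcribed part. The motif of Mnt begins 123 bases and that of Mxd4 219 bases before the start (their stretches 135 and 231). Max and Mnt rose in the knockout arrays and Mxd4 did not pass the test, as described below. A match of letters is a description and not a binding site. The looser form CANNTG, which contains CACGTG, was in 72.3% of all windows.

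Among the 9 genes, Max, Mnt, Mxd1 and Myc rose, and Mga, Mxd3 and Mxi1 fell, while Mycn and Mxd4 did not pass the test. The count of 7 is to be read against the background: 59.7% of all genes passed, 24.2% as higher and 35.5% as lower in the knockout arrays. The groups did not overlap for 7 of the 9 genes, against 64.7% of all genes. Only Mga passed with a difference of at least 2-fold, which 15.8% of all genes did. The median absolute difference was 0.43 over the 9 genes and 0.20 over all genes. The median signed difference was 0.03 against -0.03. The absolute medians are not like for like, since all genes include many dim ones, whose differences the offset understates. All of the 9 but Mycn were brighter than the median gene. Genes with a mean log2 signal above 7 passed more often. Of those with CACGTG in a window 42.0% rose and 41.0% fell, and without it 37.1% and 48.8%.

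**Figure D1:**
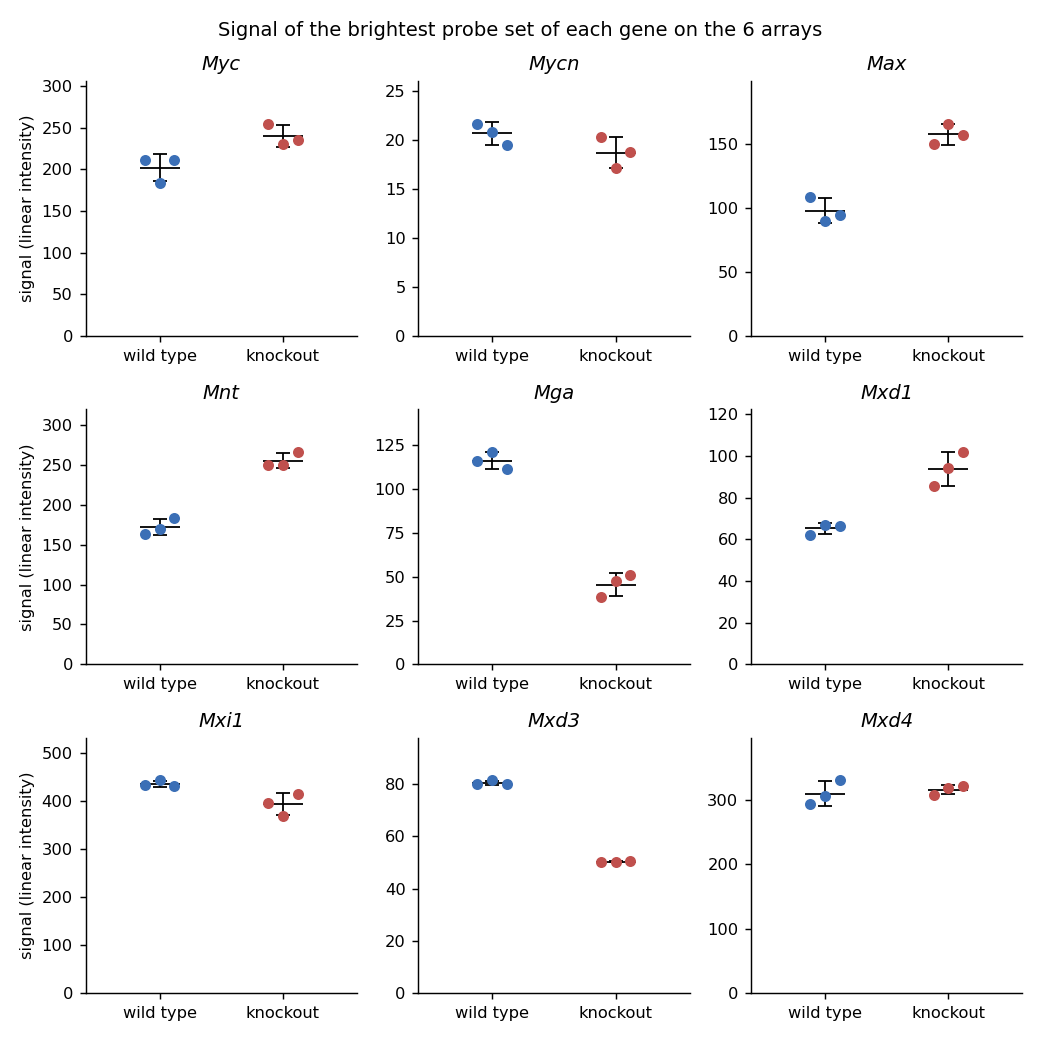
Signal (linear intensity, axes from 0) of the brightest probe set of each gene, with 1 point per array, a dash at each group's mean and an SD bar (n = 3 arrays each; "knockout" is the label of the arrays). Max, Mnt, Mxd1 and Myc sit higher and Mga, Mxd3 and Mxi1 lower in the knockout arrays with no overlap, whereas the points of Mycn and Mxd4 overlap.

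Max is the shared partner through which the other proteins bind E-boxes. Its only probe set (1423501_at, chromosome 12) read 108.7, 89.9 and 94.5 in the wild-type arrays and 149.7, 165.8 and 156.6 in the knockout arrays. Every knockout array was above every wild-type array. The means were 97.7 ± 9.79 and 157.4 ± 8.07 (SD, n = 3 each), 1.61-fold higher in the knockout arrays. The log2 difference was 0.61 ± 0.07 (SE; 95% interval 0.45 to 0.77; limma adjusted p = 8.87e-06), and 27.7% of all genes had a larger absolute difference.

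Myc, the growth-promoting member that most cells use, also has a single probe set (1424942_a_at, chromosome 15). It read 211, 183 and 211 in wild type and 255, 231 and 235 in the knockout arrays. The gap between the highest wild-type and the lowest knockout array was narrow. The means were 201.7 ± 16.01 and 240.1 ± 13.0 (SD, n = 3 each), a 1.19-fold rise with a log2 difference of 0.24 ± 0.06 (SE; 95% interval 0.10 to 0.37; limma adjusted p = 0.00611). The difference exceeded the spread between arrays, and 47.3% of all genes had a larger one. Its sign rested on the scaling of the arrays, being -0.010 (limma adjusted p = 0.900) when hybridization spike controls set the scale.

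Mycn, the relative of Myc active in the early embryo and in neural precursors, was dim. Its brightest probe set read 21.7, 20.8 and 19.5 in wild type and 20.3, 17.1 and 18.8 in the knockout arrays. The groups overlapped, and the log2 difference of -0.08 had a 95% interval of -0.21 to 0.05 (limma adjusted p = 0.282). The scalings moved it to 0.18 with poly-A spikes (limma adjusted p = 0.0472) and -0.23 with hybridization spikes (0.00930). The other probe sets had mean signals of 8.53 against 9.24 and of 2.81 against 2.997, below the array medians.

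Mnt, the broadly expressed antagonist of Myc, rose. Its brightest probe set (1418192_at, chromosome 11) read 163, 170 and 183 in wild type and 250, 250 and 266 in the knockout arrays. The groups were far apart relative to their spread. The means were 171.8 ± 10.0 and 255.1 ± 9.31 (SD, n = 3 each), 1.48-fold higher, with a log2 difference of 0.53 ± 0.05 (SE; 95% interval 0.41 to 0.65; limma adjusted p = 2.56e-06). The dim second probe set went slightly the other way without overlap, with mean signals of 16.06 against 14.98 (limma adjusted p = 0.505 over all probe sets). The average of both, which includes the brightest, rose by 0.24 (limma adjusted p = 0.000792).

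Mxd1, the antagonist usually raised as cells leave the cycle and differentiate, rose as well. Its brightest probe set (1434830_at, chromosome 6) read 62.1, 66.9 and 66.6 in wild type and 85.6, 94.3 and 101.9 in the knockout arrays. All 3 knockout arrays were above the wild-type range. The means were 65.2 ± 2.71 and 93.9 ± 8.15 (SD, n = 3 each), 1.44-fold higher, with a log2 difference of 0.43 ± 0.08 (SE; 95% interval 0.27 to 0.60; limma adjusted p = 0.000278). Both dimmer probe sets overlapped, with mean signals of 17.8 against 17.9 and of 21.0 against 23.0, and averaging the 3 probe sets reduced the difference to 0.17 (limma adjusted p = 0.0250).

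Mxi1, also called Mxd2, fell slightly. Its brightest probe set (1450376_at, chromosome 19) read 433, 443 and 431 in wild type and 396, 370 and 414 in the knockout arrays. The groups did not overlap, but the knockout arrays varied more. The means were 435.7 ± 6.48 and 393.6 ± 22.5 (SD, n = 3 each), and the log2 difference was -0.14 ± 0.05 (SE; 95% interval -0.25 to -0.04; limma adjusted p = 0.0208). The call was lost without knockout array 2 (-0.10, limma adjusted p = 0.0986) or wild-type array 2 (-0.13, 0.0730), and the sign turned with poly-A spikes (0.31, 0.00173). The second probe set overlapped, with mean signals of 109.0 and 107.4.

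Mxd3, the member of the Mxd group usually found in dividing cells, fell. Its brightest probe set (1448878_at, chromosome 13) read 80.1, 81.4 and 80.1 in wild type and 50.2, 50.1 and 50.5 in the knockout arrays. Both groups were very tight, but wild-type arrays 1 and 3 held exactly the same value. Such shared values are unexplained, so the wild-type SD may understate the spread. The means were 80.5 ± 0.756 and 50.3 ± 0.226 (SD, n = 3 each), 1.602-fold lower, with a log2 difference of -0.54 ± 0.07 (SE; 95% interval -0.69 to -0.39; limma adjusted p = 1.50e-05). With poly-A spikes as scale the difference was -0.17 and no longer passed (limma adjusted p = 0.167). Of its other probe sets, 1422970_at fell from a mean of 63.9 to 50.6 (limma adjusted p = 0.00524 over all probe sets) and 1438847_at read 62.6 and 63.9, with overlap. The average of these 3 probe sets, which have similar signals, fell by 0.26 (limma adjusted p = 0.000359).

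Mxd4 did not pass the test at its brightest probe set (1434378_a_at, chromosome 5), which read 293, 306 and 330 in wild type and 307, 318 and 321 in the knockout arrays. The knockout arrays lay inside the wild-type range. The log2 difference of 0.03 had a 95% interval of -0.08 to 0.14 (limma adjusted p = 0.673). The direction and call varied with scaling, from -0.22 with hybridization spikes (limma adjusted p = 0.00602) to 0.48 with poly-A spikes (3.39e-06). A dimmer probe set, 1422574_at, read 62.1, 62.5 and 71.5 in wild type and 49.2, 50.6 and 47.9 in the knockout arrays. It fell without overlap (-0.32, limma adjusted p = 0.00219 over all probe sets). The probe sets of Mxd4 thus disagree, as 1434379_at (means 137.4 and 131.9) and 1422575_at (6.87 and 5.92) did not pass.

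Mga had the largest difference of the 9 genes. Its brightest probe set (1434746_at, chromosome 2) read 115.9, 120.9 and 111.1 in wild type and 38.1, 47.3 and 50.7 in the knockout arrays. The lowest wild-type array was far above the highest knockout array. The means were 116.0 ± 4.88 and 45.3 ± 6.48 (SD, n = 3 each), 2.56-fold lower, with a log2 difference of -1.11 ± 0.09 (SE; 95% interval -1.30 to -0.92; limma adjusted p = 1.62e-07). Of all genes, 13.5% had a larger absolute difference.

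The other probe sets of Mga showed far less. Probe set 1422646_at read 29.5, 21.1 and 26.8 in wild type and 17.3, 21.7 and 16.5 in the knockout arrays, and fell by 0.28 with overlap (limma adjusted p = 0.0233 over all probe sets). Probe set 1431232_a_at had means of 58.3 and 53.7, which did not overlap but did not pass (limma adjusted p = 0.268). The near-floor 1442356_at rose from 7.16 to 9.57 (limma adjusted p = 0.0170), and 1433012_at read 4.86 and 4.87. The average over the 5 probe sets, which includes the brightest, fell by 0.27 (limma adjusted p = 0.000421). Its direction is therefore no separate check of the brightest probe set, and its size was far smaller. Which transcripts each probe set reads was not analysed here.

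**Figure D2:**
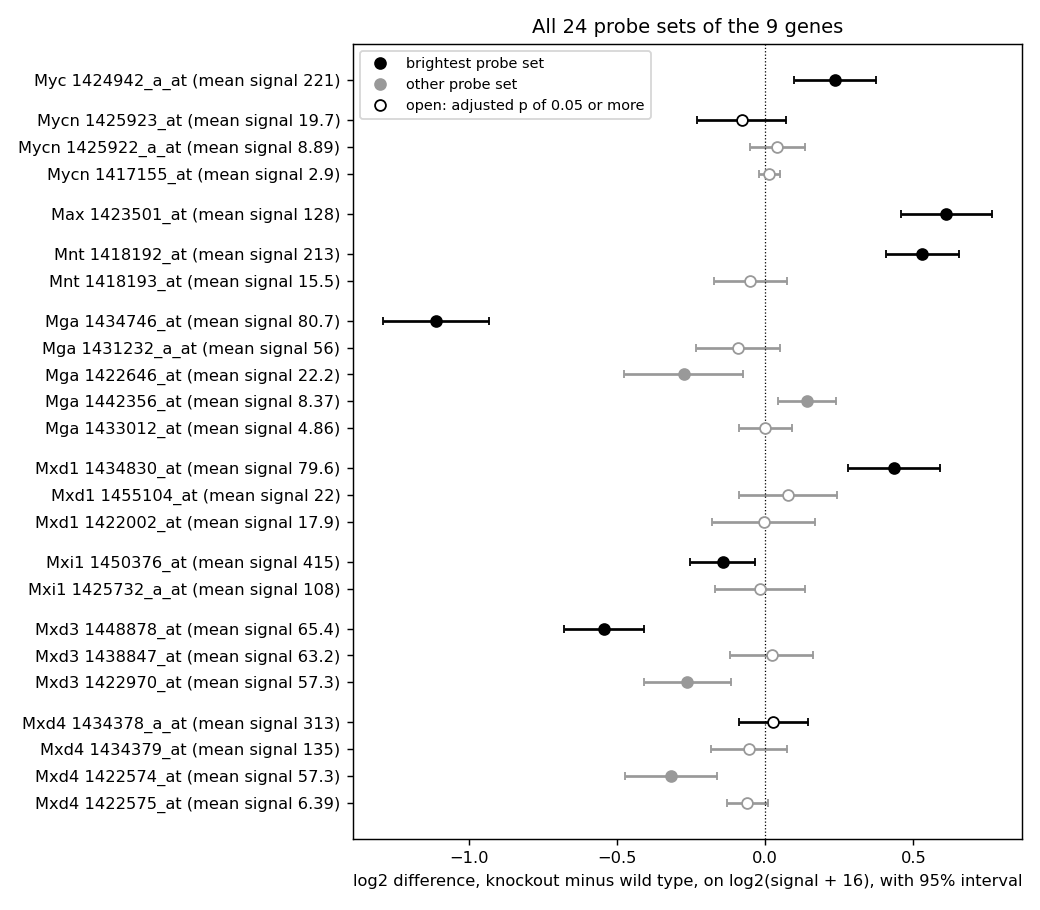
Difference (log2(signal + 16), knockout minus wild type) of all 24 probe sets of the 9 genes with 95% intervals from the fit over all probe sets, black for the brightest of a gene and grey for the others, open where the adjusted p was 0.05 or more. The brightest probe sets of Mga, Mxd1 and Mnt lie apart from the dimmer ones of the same gene, and for Mxd4 a grey probe set fell where the black one did not pass.

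Over all 24 probe sets, 5 rose, 6 fell and 13 did not pass, so 11 passed against 52.2% of all probe sets on the arrays. The groups did not overlap for 12 of them, against 58.5% of all probe sets, and 5 had a mean signal below the median of all signals. Mga was the only one of the 9 with probe sets that passed in both directions, through its near-floor probe set that rose.

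Because a common factor moves all genes of an array, the genes were also compared with the median difference of the 6635 genes with a mean log2 signal above 7. The poly-A spikes shifted that median by 0.45 and the hybridization spikes by -0.25. Relative to it, the differences under the 5 scalings stayed between 0.66 and 0.71 for Max, 0.60 and 0.62 for Mnt, 0.46 and 0.54 for Mxd1, and 0.31 and 0.32 for Myc. Mga stayed between -1.10 and -0.996 and Mxd3 between -0.53 and -0.42. Mxi1, at -0.07 to -0.06, and Mxd4, at 0.10 to 0.11, lay close to the median of bright genes under each. Mycn ran from -0.19 to 0.10. Mga was the lowest and Max the highest of the 9 under each scaling, while 0 on the unadjusted scale fell among Myc, Mxd4, Mycn and Mxi1. A common factor cancels in such a comparison. The narrow ranges and the kept order were thus largely fixed in advance and do not test the scaling.

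**Figure D3:**
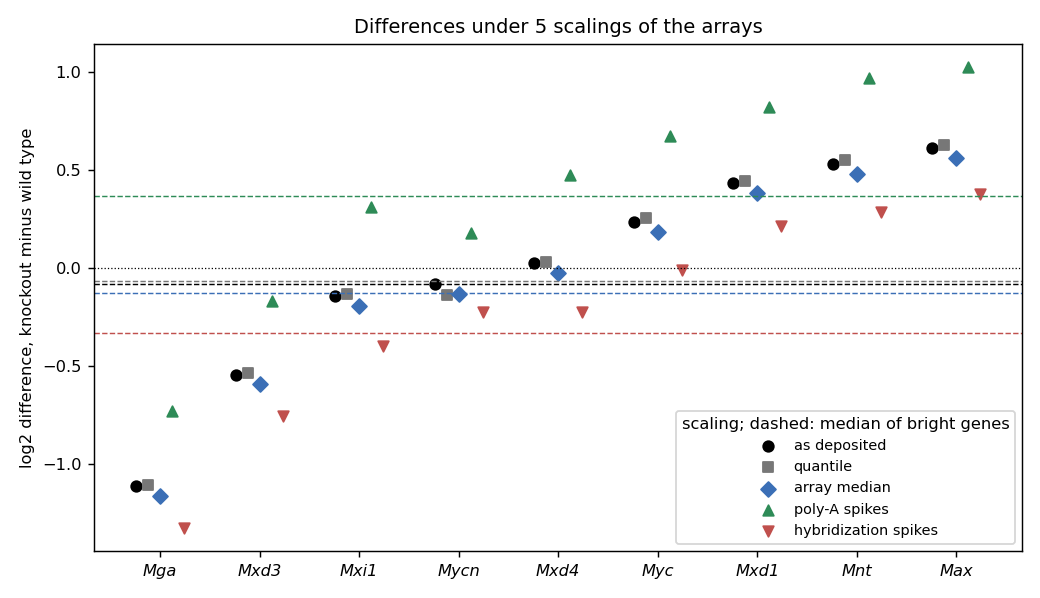
Log2 difference (knockout minus wild type) of the 9 genes under 5 scalings of the arrays, with dashed lines at the median of bright genes in the colour of each scaling. Max, Mnt and Mxd1 stay above 0 and Mga and Mxd3 below 0 under all 5, while Myc, Mxd4, Mycn and Mxi1 cross it.

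The bright genes of some chromosomes shifted together, so each gene was set beside its chromosome. The median difference of bright genes on chromosome 13, which carries Mxd3, was 0.42 above that of all bright genes, opposite to the fall of Mxd3. For the chromosomes of Mnt (11) and Mga (2) it was 0.22 and 0.12 above. For those of Max and Mycn (12) and Mxd1 (6) it was -0.14 and -0.21, opposite to the rises of Max and Mxd1. For Myc (15), Mxd4 (5) and Mxi1 (19) it lay between -0.05 and 0.05. Centring bright genes on their chromosome moved Max, Myc, Mnt, Mxi1 and Mxd4, which are themselves bright, and each kept its direction and call (0.77 for Max, 0.18 for Myc and 0.32 for Mnt). Mga, Mxd1, Mxd3 and Mycn were too dim for that centring and stayed as they were.

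The genes whose profile over the 6 arrays lay closest to that of Mga were Elmod2, Syde2, Apba3, Dusp22 and Snhg8. Closeness was the Euclidean distance between log2 profiles centred on their own means, among 7207 genes with a mean signal above 100. The distances were 0.0960, 0.103, 0.111, 0.119 and 0.134. Elmod2, for example, read 190, 195 and 189 in wild type and 73.6, 83.1 and 85.9 in the knockout arrays, a log2 difference of -1.10. The noncoding RNA Snhg8 fell from a mean of 1282 to 570 (-1.15). With groups this tight, closeness mainly reflects a group difference of like size, and shared regulation with Mga was not tested.

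Turning to genes around the network, 198 genes in 10 lists were measured, of which 53 rose and 109 fell. Over all genes 24.2% rose and 35.5% fell, with a median difference of -0.03. Dim genes, which passed less often, weigh on those shares, while few list genes were dim. Of the 14 partners and relatives outside the 9 genes, 4 rose, 3 fell and 7 did not pass (median 0.06, but -0.13 with hybridization spikes). Mlx, the Max-like protein that pairs with Mnt, Mxd1 and Mxd4 and with the glucose sensors, read 119, 110 and 117 in wild type and 221, 219 and 250 in the knockout arrays. That was a rise of 0.91 ± 0.06 (SE; limma adjusted p = 5.22e-08) with no overlap. Mitf, a related factor of pigment cells and lysosomes, rose from a mean of 81.3 to 370.2 (1.99, or 1.21 with probe sets averaged), and the circadian factor Clock rose by 0.64.

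Mycl, a further Myc gene, read 45.2, 61.0 and 56.8 in wild type and 8.66, 11.5 and 7.99 in the knockout arrays. The knockout arrays were at the floor for it. It fell by 1.47 on the log2 scale (limma adjusted p = 2.00e-08), and by 0.59 when its probe sets were averaged. It lies on chromosome 4, whose bright genes had a median 0.65 below that of all bright genes. The lysosomal regulator Tfeb fell by 0.33 but turned to 0.05 with poly-A spikes, and Bhlhe41, at the floor in both groups, fell by 0.18 and lost its call in 4 alternatives, poly-A spikes among them.

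The 18 genes listed as coactivators include acetyltransferase, remodelling and elongation proteins. Of them 5 rose and 9 fell (median -0.19, turning to 0.26 with poly-A spikes and 0.04 with probe sets averaged). Bptf, a subunit of the NURF remodeller, rose from 488 to 991 (0.9997). The acetyltransferase Ep300 and the elongation cyclin Ccnt1 each rose by 0.54. Ruvbl2, an ATPase of the TIP60 complex, fell from 544 to 178 (-1.53). Dmap1 of the same complex fell by 1.17, or by less on its own chromosome 4 scale (-0.53), and Actl6a fell by 0.71 but turned to 0.26 with probe sets averaged. A further 3 members were named after their values were seen, because they are the best known. Trrap, the scaffold that contacts Myc, fell by 0.48, and Kat5, the TIP60 acetyltransferase, by 0.67. Zbtb17 fell by 0.67. It encodes Miz1, which Myc binds to lower some genes, so the list does not hold coactivators alone.

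Of the 15 Sin3 and histone deacetylase genes, which the Mxd proteins and Mnt use to repress, 10 fell and 3 rose (median -0.47, turning to 0.005 with poly-A spikes). Without probe sets whose names end in x, s or a, which can match more than their own transcript, 6 fell and 5 rose, with a median of -0.11. The largest falls were of the Sin3 subunits Ing2 (-1.70) and Sap30 (-1.69) and of the deacetylase Hdac1. With chromosome 8 centred, Ing2 came to -1.28 and Sap30 to -1.27. Hdac1 read 1081, 960 and 979 in wild type and 321, 341 and 343 in the knockout arrays, a log2 difference of -1.54, or -0.90 with chromosome 4 centred. The scaffolds that bind the Mxd proteins directly, named after their values were seen, fell too: Sin3a from 433 to 288 (-0.56) and Sin3b from 776 to 449 (-0.77). Suds3 rose by 0.40, or by 0.22 with probe sets averaged. Arid4b (0.35) and Sap130 (0.31) rose but lost the call with hybridization spikes and when centred on their chromosomes, where Arid4b came to -0.05.

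Mga works within a Polycomb complex known as PRC1.6, and of its 13 other measured genes none rose, 10 fell and 3 did not pass (median -0.52, and -0.06 with poly-A spikes). With probe sets averaged 2 rose and 10 fell (median -0.39). Without x, s and a probe sets 0 rose and 7 fell (median -0.37). Pcgf6, the subunit that defines the complex, read 531, 569 and 555 in wild type and 219, 224 and 238 in the knockout arrays. It fell without overlap by 1.22 ± 0.05 (SE; limma adjusted p = 2.01e-10), and by 0.70 with probe sets averaged. Tfdp2, the partner of E2f6, fell from 655 to 185 (-1.73). Of the 13 genes 3 are also in another list, among them Hdac1 in the Sin3 list. The ones that did not pass, named after their values were seen, were E2f6 (-0.01), L3mbtl2 (-0.14) and Ring1 (0.14). With poly-A spikes 5 of the 13 rose and 5 fell.

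Myc protein is short-lived, and 21 genes that set its turnover were measured. Of these 5 rose and 12 fell (median -0.42, turning to 0.05 with poly-A spikes, and -0.22 without x, s and a probe sets). Fbxw7, the ubiquitin ligase subunit that marks phosphorylated Myc for destruction, rose from 134 ± 5.38 to 214 ± 1.67 (SD, n = 3 each; 0.62). Usp36, a nucleolar deubiquitinase that removes ubiquitin from Myc, rose from 114 to 241 (0.99, or 0.58 with probe sets averaged). Btrc rose by 1.08, but by 0.04 with its 5 probe sets averaged. Skp2, a ligase subunit that both degrades and activates Myc, fell from 718 to 189 (-1.84), and the mitotic kinases Plk1 and Aurka fell by 1.86 and 1.77, or for Aurka by 0.91 with probe sets averaged. Skp2 and these kinases vary with the cell cycle, and Plk1 is itself among the proliferation markers that fell.

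**Figure D4:**
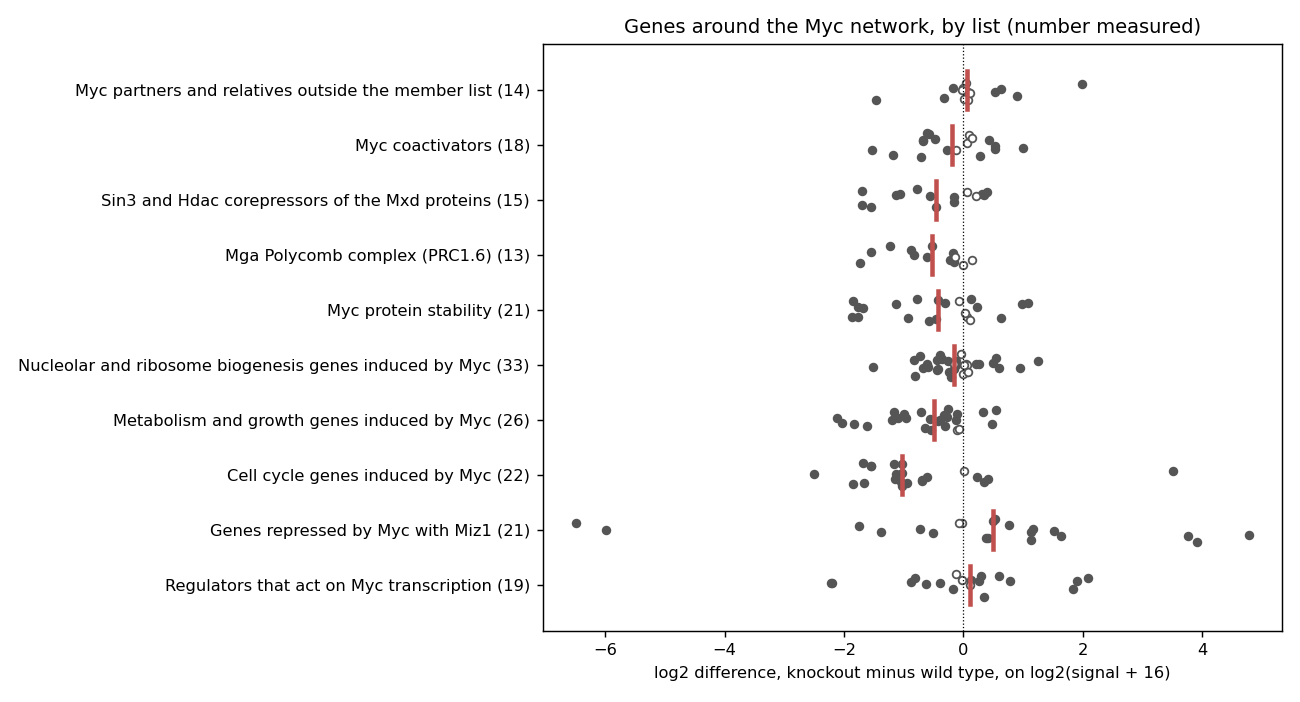
Log2 difference (knockout minus wild type) of each measured gene in the 10 lists around the network, filled where limma's adjusted p was under 0.05 and open otherwise, with the number measured in brackets and a red bar at the list's median. Medians run from -1.03 for cell cycle genes to 0.50 for the list named as repressed by Myc with Miz1, and most lists hold genes on both sides of 0.

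Genes that Myc is known to induce were taken in 3 groups. Of 33 nucleolar and ribosome biogenesis genes, 7 rose, 18 fell and 8 did not pass (median -0.15, but -0.02 with probe sets averaged, and turning to 0.29 with poly-A spikes, under which 18 rose and 5 fell). Gnl3 (nucleostemin) rose from 535 ± 34.3 to 1286 ± 13.0 (SD, n = 3 each; 1.24), Utp20 by 0.94 and Pa2g4 by 0.60. Knockout arrays 2 and 3 held exactly the same value for Gnl3, so its knockout SD may understate the spread. Centred on their chromosomes, Gnl3 rose by 0.70 and Pa2g4 by 0.30. Tcof1, the treacle protein of ribosomal RNA transcription, fell from 232 to 71.1 (-1.51), and Dkc1, the pseudouridine synthase dyskerin, by 0.81. Nolc1 fell by 0.83, but by 0.11 with probe sets averaged, where it did not pass. The textbook Myc targets nucleolin (Ncl), fibrillarin (Fbl) and nucleophosmin (Npm1), named after their values were seen, fell by 0.44, 0.73 and 0.13. Their values under the alternatives are not given here, and poly-A spikes raised the median of bright genes by 0.45.

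Of 26 metabolism and growth genes, 3 rose, 21 fell and 2 did not pass (median -0.49, and -0.02 with poly-A spikes). The transferrin receptor Tfrc fell from 1364 ± 170 to 300 ± 8.25 (SD, n = 3 each; -2.12), the translation repressor Eif4ebp1 from 3021 to 724 (-2.04) and the amino acid transporter Slc7a5 from 1368 to 372 (-1.83). With their chromosomes centred, these came to -1.78, -1.62 and -1.41. The hexokinase Hk2 rose by 0.48 and the nucleoside diphosphate kinase Nme1 by 0.55 (0.34 with its chromosome centred). Prps2 rose by 0.33 but came to -0.03 with probe sets averaged. Ornithine decarboxylase (Odc1) and Cad, classical E-box targets of Myc named after their values were seen, fell by 0.40 and 0.56.

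Of 22 cell cycle genes, 4 rose and 17 fell (median -1.03, and negative under each of the 5 scalings). The replication helicase genes Mcm5 and Mcm3 fell by 2.49 and 1.69, and Skp2 is shared with the turnover list. With their chromosomes centred, Mcm5 came to -2.07 and Mcm3 to -1.62. In this list 7 genes are also proliferation markers, all of which fell. Cyclin D1 (Ccnd1) went the other way, from 197 ± 7.11 to 2400 ± 157 (SD, n = 3 each; 3.50). Cyclin D2 (Ccnd2) rose by 0.42 but lost its call with hybridization spikes. E2f3 rose by 0.34 but came to -0.06 with its chromosome centred.

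Myc is known to lower some genes by binding Miz1 at their starts. Of 21 genes listed under such repression 13 rose, 6 fell and 2 did not pass (median 0.50, between 0.25 and 0.94 over the spike scalings). Whether each of them is lowered through Miz1 was not checked here, so the list may mix mechanisms. Thrombospondin 1 (Thbs1) rose from 62.8 to 2157 (4.78), the cyclin-dependent kinase inhibitor Cdkn1c from 14.2 to 440.3 (3.91), and the growth arrest gene Gas1 from 404.5 to 5709 (3.77). Cdkn1c was at the floor in wild type, so the size of its difference depends on the offset. Cdkn2b and Cdkn1a, known targets of the pair, and Gadd45a, all named after their values were seen, rose by 0.53, 0.38 and 1.13. The collagen genes Col1a2 and Col3a1 fell to the floor (-6.48 and -5.99, sizes that the floor limits). Col1a2 fell by 4.14 with probe sets averaged, and Col3a1 by 2.5 without x, s and a probe sets. Gas2 fell by 1.75 at its brightest probe set, by 0.88 with probe sets averaged, and came to -0.01 without x, s and a probe sets.

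Of 19 genes that act on the transcription of Myc itself, 9 rose, 7 fell and 3 did not pass (median 0.11, turning to -0.14 with hybridization spikes and -0.02 without the x, s and a probe sets). Pvt1, the long noncoding gene next to Myc in RefSeq's gene order, read 1063, 1065 and 1006 in wild type and 225, 206 and 210 in the knockout arrays. It fell by 2.21 ± 0.05 (SE; limma adjusted p = 8.12e-13), while Myc beside it was 0.24 higher. Smad3, the TGF-beta effector that represses Myc, rose from 238 to 1057 (2.08, or 1.14 with probe sets averaged). Cebpb rose by 1.90 and the growth factor gene Pdgfb by 1.83. The pocket protein gene Rbl1 (p107) fell from 831 to 169 (-2.19, or -1.26 with probe sets averaged), and the cycle-dependent activator Foxm1 by 0.88.

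The list counts moved with the scaling, as those of all genes did. With poly-A spikes 11 partners rose and 1 fell, 10 coactivators rose and 5 fell, 7 Sin3 genes rose and 6 fell, 9 turnover genes rose and 8 fell, 6 metabolism genes rose and 10 fell, and 12 regulators rose and 4 fell. With hybridization spikes 1 cell cycle gene rose and 18 fell, and 1 Sin3 gene rose and 10 fell. The counts for the Miz1 list stayed at 15 against 5 and 11 against 8 under these scalings.

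The E-box was also set against the array values. Of the genes tested, 14452 had a RefSeq window, and 10.2% of them held CACGTG. Of these 1479 genes 30.6% rose and 35.1% fell, against 23.5% and 36.4% of the 12973 without it. Genes with the motif were also brighter, 47.7% against 36.9% having a mean log2 signal above 7. The median difference was -0.02 with the motif and -0.03 without it over all such genes. Among the bright ones it was 0.02 and -0.11. Of the lists, the motif was in 7 of 27 nucleolar genes with a window (Utp20 and Nop2 among them) and 6 of 21 metabolism genes (Nme1 among them). It was also in 3 of 18 cell cycle genes, 4 of 17 genes of the Miz1 list and 3 of 12 partners. It was in 2 of 18 coactivators, 1 of 11 Sin3 genes, 1 of 11 PRC1.6 genes, 2 of 17 turnover genes and 1 of 14 regulators. These shares are descriptions with no test.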

How the data were processed

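Per the labels, biotin-labelled RNA of 6 samples was hybridized to 1-colour arrays. The authors deposited 1 linear intensity per probe set and array. The submitters' processing notes name MAS5, and what it did and any later scaling is not given in the sources used here. Any pair of arrays shared the same value at 137 to 524 probe sets, and the cause is not given either. Groups and replicate numbers came from the sample titles. No detection call was used.

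Signals were transformed as log2(signal + 16). The annotation gave 34945 probe sets with 1 symbol, 932 with several and 9160 unnamed; 34741 of the first matched RefSeq's gene table (GRCm38.p6, used for names, chromosomes and neighbours). The brightest probe set per gene entered limma 3.58.1 in R 4.3.3 (lmFit, eBayes with trend, 2-sided, Benjamini-Hochberg over 18193 genes); other probe sets were tested in a fit over all 45037. The script was tested on simulated data. The number of arrays limits the precision. Same-group arrays correlated at 0.998 or more over probe sets, others at most at 0.919.

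The 9 genes, the lists and the tests were chosen with earlier results of these data known. Named genes were the 9, per list the 3 largest rises and falls past an adjusted p of 0.05 without overlap, and the 5 genes nearest to Mga. Others are said to be named after their values were seen. Most of these went the way of most of their list, so they add no support to its counts. Same-numbered arrays of the groups deviated together only weakly (correlations 0.04, 0.11 and 0.16), so numbers were not taken to pair them. Alternatives were other offsets (1 and 64), scalings (quantile, median, poly-A and hybridization spikes), chromosome centring, dim genes left out, probe sets averaged or without x, s and a types, eBayes without trend or robust, array weights, a replicate block and leaving out each array. No protein sequence was used here. Figures were drawn with matplotlib 3.10.9.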

Additional observations from a re-analysis of the deposited data

How the results depend on the processing

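The differences of Max, Mnt, Mxd1 and Mga kept their direction and their call in all 20 alternatives (0.38 to 1.03, 0.24 to 0.97, 0.17 to 0.83 and -1.34 to -0.27). Of 179 member results, 165 kept both direction and side of the threshold. These counts include alternatives that could not turn a direction. Leaving out dim genes, the eBayes variants and the replicate block changed the p-values and not the differences. With hybridization spikes, Myc was -0.010, Mycn -0.23 and Mxd4 -0.22. With poly-A spikes, Mycn was 0.18, Mxd3 -0.17, Mxd4 0.48 and Mxi1 0.31. Mxd4 was -0.022 with median scaling, -0.10 with probe sets averaged and -0.054 without x, s and a probe sets, which hold its brightest. Mxi1 was -0.080 with probe sets averaged. Leaving out each array gave -0.0097 to 0.072 for Mxd4, turning without wild-type array 1, and -0.18 to -0.10 for Mxi1. Myc could not be read without x, s and a probe sets, since its only one is of that kind.

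With poly-A spikes 7 of the 9 genes rose and 1 fell, against 4 and 3, and with hybridization spikes 5 fell. Over all genes, 4411 rose and 6455 fell. This became 9754 and 3006 with poly-A spikes, 3036 and 10722 with hybridization spikes and 4050 and 9738 with median scaling. A spike reference moves all genes of an array together, so its p-values leave out the reference's own uncertainty. In mean log2 signal the poly-A reference was -0.47 and the hybridization reference 0.26, knockout less wild type. List medians that turned were 0.26 (poly-A spikes) and 0.043 (probe sets averaged) for coactivators, 0.0048 for Sin3 genes, 0.046 for Myc turnover and 0.29 for nucleolar genes with poly-A spikes, -0.13 for partners and -0.14 for regulators with hybridization spikes, and -0.023 for regulators without x, s and a probe sets. Of the 55 list genes named for the largest rises and falls, 44 kept direction and call in every alternative, 5 turned and 6 lost the call. Being picked for large differences, they do not stand for their lists. Genes named after their values were seen are not among the 55, and their values under the alternatives are not given. With a replicate block, each of the 9 genes kept its call, Myc at 0.24 with a limma adjusted p of 0.00176, and 4458 genes rose and 6477 fell. In the check of the numbers each array correlated best with its own number, a hint from the data and not the design. The cause of these changes was not tested, and signal near the floor limits Mycn and the dim probe sets.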
